A study of Mus musculus with 4 samples.

Results

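The mitochondrial carrier family, called SLC25 in its systematic gene names, was examined in liver RNA of 4 male aP2-SREBP-1c mice. Members were the genes measured by probe sets annotated to a single symbol beginning with Slc25a, together with Ucp1, Ucp2, Ucp3, Mtch1 and Mtch2. For each gene the probe set with the highest mean over the 4 arrays was used. This gave 50 members, measured by 55 probe sets, of 19938 named genes on the array. Ucp2 had no such probe set and was not analysed here. The mice carry the active N-terminal part of human SREBP-1c under the adipocyte promoter aP2 on a C57Bl6 background. They lack adipose tissue and develop massive hepatic steatosis, and the transgene is described as not expressed in liver. The labels give an age of 24 weeks and regular chow for all 4 mice. Each mouse was measured on 1 Mouse Gene 1.0 ST array. Since all mice form 1 group, no comparison between phenotypes was made, and levels and their spread between mice are given. Apart from Dixon's criterion for a single mouse apart from the others, no test was run.

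Carriers of this family share a basket-shaped fold of repeated membrane-spanning modules and mostly sit in the inner mitochondrial membrane. They exchange nucleotides, phosphate, carboxylates, amino acids, acylcarnitines and cofactors between cytosol and matrix. In liver they link mitochondria to lipogenesis through citrate export, to fatty acid oxidation through acylcarnitine entry, to the urea cycle through ornithine and aspartate, and to ATP supply through the adenine nucleotide and phosphate carriers. A few members, among them Mtch1, Mtch2 and Slc25a46, reside in the outer membrane.

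All values are log2 expression values. Probe sets for olfactory and vomeronasal receptors (n = 1210), whose transcripts liver is not known to make, served as background, and a gene counted as above it where every array gave more than the 95th percentile of these receptors. This limit was 5.52, 5.35, 5.34 and 5.33 in mice 1 to 4. Defining hepatocyte transcripts were high on every array, and all 9 measured genes of that marker list were above background with a median range of 1.09-fold between mice. The array of mouse 1 stood apart from the others. Its values were compressed, and relative to the other mice the median gene was 0.13 higher in the lowest of 10 classes of mean expression and fell by 0.23 in the highest. The main counts and most wide ranges that rest on mouse 1 are therefore given also after cyclic loess normalization of the 4 arrays, which removes differences that depend on expression level. Some are also given without this mouse. Levels belong to their own probe sets and are not ranked between genes, and the number of arrays limits their precision.

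In aP2-SREBP-1c liver, 37 of the 50 carriers (74.0%) were above background, while 61.5% of all named genes were. Between the highest and the lowest mouse, 9 of these 37 carriers (24.3%) differed by more than 1.5-fold, whereas 12.9% of all genes above background did so. They comprised the acylcarnitine carrier Slc25a20, the oxodicarboxylate carrier Slc25a21, the adenine nucleotide translocator Slc25a4, the ATP-Mg/phosphate carrier Slc25a25, the amino acid carrier Slc25a44, the folate carrier Slc25a32, Slc25a43, Slc25a30 and Mtch2. In 7 of the 9 the lowest value was that of mouse 1, whereas Slc25a25 and Slc25a30 were highest in mouse 1. Among the 1584 genes above background with such a range, 958 were lowest and 442 highest in mouse 1. Over all genes above background these are 7.81% and 3.6%, beside 7 and 2 of the 37 carriers. After loess normalization, 6 of the 37 carriers differed by more than 1.5-fold, all of them among the 9, against 9.92% of all genes above background. Quantile normalization left 6 as well, against 10.6% of all genes. Without mouse 1, 3 members exceeded 1.5-fold, namely Slc25a4, Slc25a25 and Slc25a30, against 2.71% of all genes. The median SD between mice was 0.19 for the 37 carriers and 0.15 for all genes above background, and after loess normalization it was 0.13 and 0.14.

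**Figure D1:**
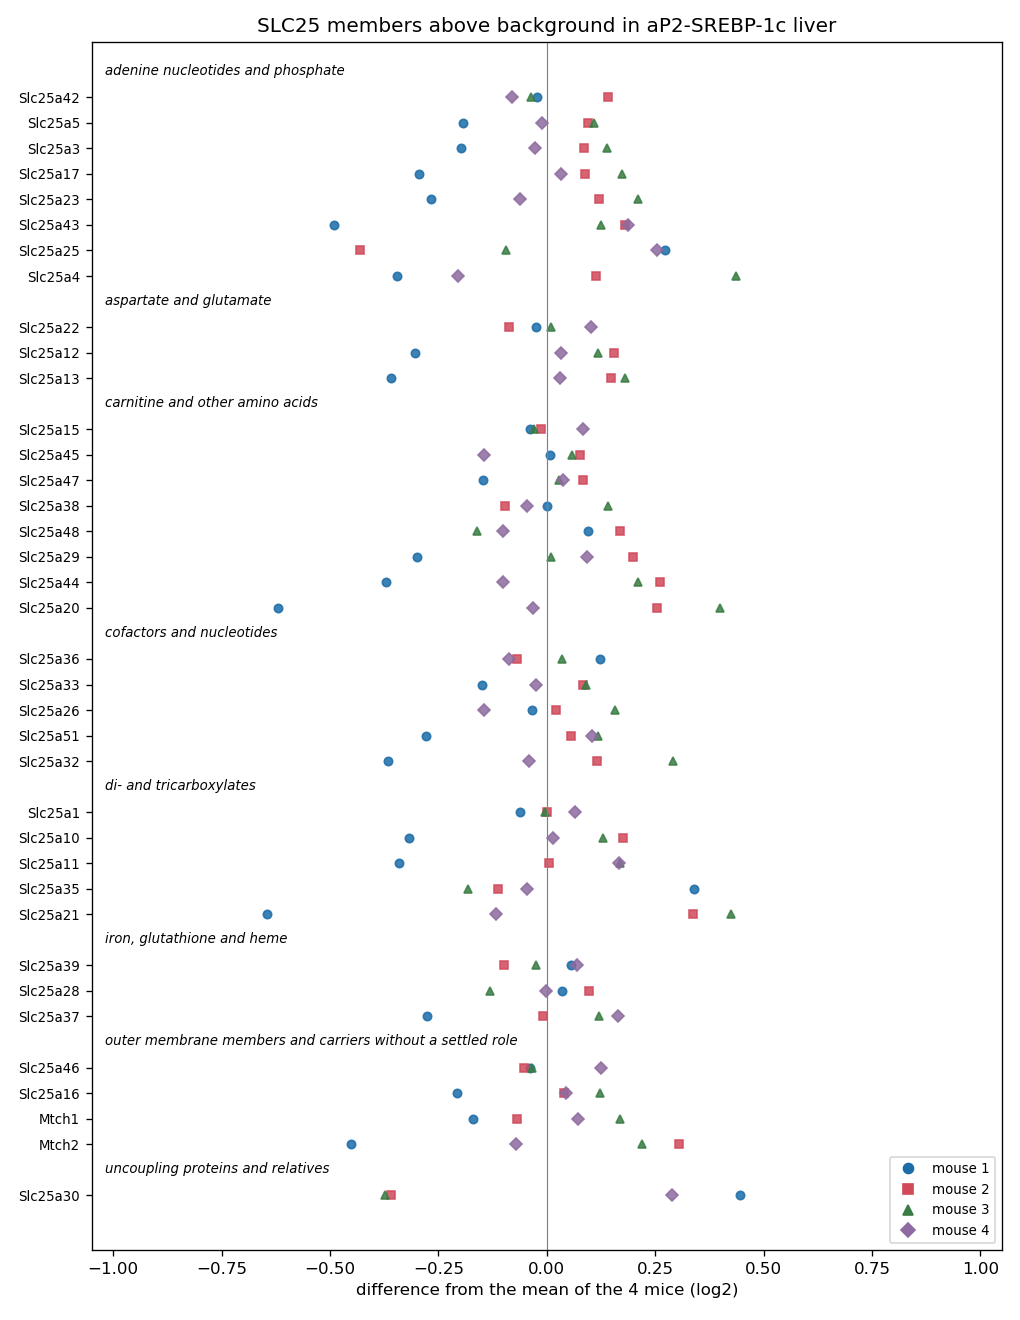
Log2 expression of the 37 SLC25 members above background per aP2-SREBP-1c mouse (n = 4), drawn relative to the mean of each gene, grouped by transport role and ordered by range. Symbols stand for mice. In these deposited values Slc25a21 and Slc25a20 had the widest ranges (2.10-fold and 2.03-fold), and Slc25a1 and Slc25a15 the narrowest (1.09-fold each).

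Among the carriers of adenine nucleotides and phosphate, 8 of 12 were above background and 3 differed by more than 1.5-fold between mice. The translocators Slc25a4 and Slc25a5, known as ANT1 and ANT2, exchange matrix ATP for cytosolic ADP, and ANT1 is the main form of heart and skeletal muscle. Slc25a4 (probe set 10578539) was measured at 6.81, 7.27, 7.59 and 6.95 in mice 1 to 4, with a mean of 7.15 ± 0.35 (SD, n = 4) and a 1.72-fold range. Mouse 3 was highest and mice 1 and 4 were lowest. The range was 1.58-fold after loess normalization and 1.56-fold without mouse 1. Slc25a5 (probe set 10599215) was measured at 11.67, 11.96, 11.97 and 11.86, a 1.23-fold range. Probe set 10523479 of the same gene gave 11.60, 11.89, 11.88 and 11.77 and probe set 10355996 gave 10.64, 10.89, 10.96 and 10.88, and in all 3 mouse 1 was lowest. The annotation does not state whether probes of these related genes cross-hybridize. Of 12 skeletal muscle markers, 7 were above background, and the summed linear signal of the list was 744, 672, 696 and 624 in mice 1 to 4. Myh1, Myh4, Myl1, Mylpf and Casq1 were not above background but are part of this sum. The part of muscle cells in the values of Slc25a4 was not tested. Slc25a31, the testis form ANT4, was measured at 3.79, 3.99, 3.64 and 3.65 and was above the limit on no array.

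The phosphate carrier Slc25a3, which supplies the ATP synthase with phosphate, was measured at 9.61, 9.89, 9.95 and 9.78, a 1.26-fold range that narrowed to 1.09-fold after loess normalization. The calcium-sensitive ATP-Mg/phosphate carriers adjust the matrix pool of adenine nucleotides. Of these, Slc25a23 was measured at 10.26, 10.65, 10.74 and 10.47 and was lowest in mouse 1. Slc25a25 (probe set 10481634) had another order, with 8.31, 7.60, 7.94 and 8.29 in mice 1 to 4 and a mean of 8.03 ± 0.33 (SD, n = 4). Mice 1 and 4 were nearly equal and lay above mice 2 and 3. Its range was 1.63-fold, and it was 1.81-fold after loess normalization and 1.61-fold without mouse 1. Slc25a24, measured at 5.32, 5.23, 5.24 and 5.07, and Slc25a41 were above the limit on no array.

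The promoter window of Slc25a25 is shown because it holds a cAMP response element, which no other window had among the 7 of the 9 wide-ranging members that were matched. RefSeq gives 3 starts for this gene in GRCm38.p6, and the window covers the 250 bases before 1 of them, at chr2:32424067-32424316 on the minus strand. Capitals mark, from 5′ to 3′, a cAMP response element, an inverted CCAAT box and a GC box.
Slc25a25: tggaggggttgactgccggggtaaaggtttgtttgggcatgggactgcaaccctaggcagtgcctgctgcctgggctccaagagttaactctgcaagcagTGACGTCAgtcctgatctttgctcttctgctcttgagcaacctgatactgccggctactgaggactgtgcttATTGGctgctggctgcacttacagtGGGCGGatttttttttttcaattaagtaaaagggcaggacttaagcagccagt

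Slc25a17, the peroxisomal carrier PMP34, was measured at 9.12, 9.50, 9.59 and 9.45. Slc25a42, which carries coenzyme A, was measured at 7.78, 7.94, 7.77 and 7.72, a 1.17-fold range that was 1.18-fold after loess normalization. Slc25a43, whose substrate is not settled and which was placed here by its similarity, was low in a single mouse. It was measured at 5.79, 6.46, 6.41 and 6.47 (probe set 10599207). Mice 2 to 4 lay within 1.04-fold of each other and mouse 1 was lower by 0.65, and lower by 0.66 after loess normalization. The value of mouse 1 was near background, 0.27 above the limit of its array. Slc25a54 was above the limit on no array.

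Of the carriers of di- and tricarboxylates, 5 of 6 were above background. The citrate carrier Slc25a1 delivers citrate for cytosolic lipogenesis, and in the deposited values it had the smallest SD of the 37 carriers. It was measured at 10.21, 10.28, 10.27 and 10.34, with a mean of 10.27 ± 0.05 (SD, n = 4). Its range was 1.09-fold and 1.14-fold after loess normalization, where Slc25a16, at 1.06-fold, and 5 other carriers ranged less. Its promoter window is shown as that of a carrier with little spread, at chr16:17928220-17928469 on the minus strand of GRCm38.p6. Capitals mark, in order, an E-box, an inverted CCAAT box and 4 GC boxes, of which those reading CCGCCC are inverted.
Slc25a1: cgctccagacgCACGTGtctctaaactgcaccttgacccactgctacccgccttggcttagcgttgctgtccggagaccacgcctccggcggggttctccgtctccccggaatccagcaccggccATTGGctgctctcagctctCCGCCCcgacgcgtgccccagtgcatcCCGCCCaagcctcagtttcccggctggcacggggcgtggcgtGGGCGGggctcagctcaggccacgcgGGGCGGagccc

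Slc25a21 carries oxodicarboxylates such as 2-oxoadipate, an intermediate of lysine and tryptophan breakdown, and in the deposited values it had the widest range of all 37 carriers. Its values (probe set 10400483) were 6.78, 7.76, 7.85 and 7.30 in mice 1 to 4, with a mean of 7.42 ± 0.49 (SD, n = 4). Mouse 1 was lowest, mouse 4 was intermediate, and mice 2 and 3 were highest. The 2.10-fold range was 1.89-fold after loess normalization and 1.46-fold without mouse 1. The dicarboxylate carrier Slc25a10 was measured at 9.94, 10.44, 10.39 and 10.27, and the 2-oxoglutarate carrier Slc25a11, a part of the malate-aspartate shuttle, at 8.82, 9.16, 9.33 and 9.32. Both were lowest in mouse 1, with ranges of 1.41-fold and 1.42-fold that were 1.23-fold and 1.24-fold after loess normalization. Slc25a35, which has no settled substrate, ran the other way with 6.08, 5.62, 5.56 and 5.69 and was highest in mouse 1. It lay close to the background limit of each array. Slc25a34 exceeded the limit on 1 array only.

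The aspartate/glutamate carriers Slc25a12 (aralar) and Slc25a13 (citrin) export aspartate from the matrix, and citrin is the main form of liver. Slc25a13 was measured at 9.54, 10.05, 10.08 and 9.93, with a mean of 9.90 ± 0.25 (SD, n = 4), and Slc25a12 at 7.54, 8.00, 7.96 and 7.88, with a mean of 7.84 ± 0.21 (SD, n = 4). Both paralogs were lowest in mouse 1, and without this mouse their ranges were 1.11-fold and 1.09-fold. The glutamate carrier Slc25a22 was nearly equal in all mice, with 8.27, 8.21, 8.31 and 8.40. The second glutamate carrier, Slc25a18, was measured at 6.13, 5.28, 5.38 and 5.48 and missed the limit in mouse 2, so that it was not counted above background. Mouse 1 was higher than the other mice by 0.75, and by 0.67 after loess normalization.

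Of the carriers of carnitine and other amino acids, 8 of 9 were above background and 2 differed by more than 1.5-fold. Slc25a20, the carnitine-acylcarnitine carrier, brings long-chain acyl groups into the matrix for oxidation. Its values (probe set 10589076) were 8.94, 9.82, 9.96 and 9.53 in mice 1 to 4, with a mean of 9.56 ± 0.45 (SD, n = 4). The order of the mice was that of Slc25a21, with mouse 1 lowest, mouse 4 intermediate and mice 2 and 3 highest. The range was 2.03-fold, and it was 1.71-fold after loess normalization and 1.35-fold without mouse 1. All 6 measured genes of the carnitine shuttle list were lowest in mouse 1 in the deposited values, against 46.1% of all genes above background. After loess normalization 4 of them were, against 33.1% of all genes. Cpt1a, which forms acylcarnitines at the outer membrane, was measured at 9.81, 10.16, 10.28 and 10.11, and Cpt2, which reconverts them in the matrix, at 8.97, 9.37, 9.50 and 9.34. In these the ranges were 1.38-fold and 1.45-fold, and after loess normalization 1.17-fold and 1.22-fold. Acadm, the medium-chain acyl-CoA dehydrogenase, was measured at 10.46, 11.17, 11.15 and 10.81, a 1.64-fold range that was 1.44-fold after loess normalization.

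The promoter window of Slc25a20 is shown as that of a carrier with a wide range, at chr9:108661886-108662135 on the plus strand of GRCm38.p6. Capitals mark, in order, an inverted GC box, an ETS site, a GC box and an inverted GC box.
Slc25a20: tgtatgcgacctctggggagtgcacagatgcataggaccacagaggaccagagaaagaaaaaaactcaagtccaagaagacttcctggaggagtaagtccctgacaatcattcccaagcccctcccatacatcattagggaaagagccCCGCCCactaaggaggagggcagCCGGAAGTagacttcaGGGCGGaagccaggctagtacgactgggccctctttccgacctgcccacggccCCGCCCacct

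Slc25a44, which carries branched-chain amino acids, was measured at 8.52, 9.15, 9.10 and 8.79 (probe set 10499372). Its 1.55-fold range was 1.37-fold after loess normalization. The ornithine carrier Slc25a15, needed for the urea cycle, was nearly equal in all mice, with 9.96, 9.99, 9.97 and 10.08 and an SD of 0.06 (n = 4). Its paralog Slc25a2 was measured at 4.70, 4.86, 4.87 and 5.02 and was above the limit on no array. Slc25a47, a carrier found mainly in liver, was measured at 10.67, 10.90, 10.84 and 10.85, a 1.17-fold range that was 1.08-fold after loess normalization. The basic amino acid carrier Slc25a29 was measured at 5.68, 6.18, 5.99 and 6.07 and was lowest in mouse 1 under both scalings. The glycine carrier Slc25a38, Slc25a45 and Slc25a48 ranged 1.18-fold, 1.17-fold and 1.26-fold.

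All 5 measured carriers of cofactors and nucleotides were above background. Slc25a32, which carries folate and FAD, was measured at 6.90, 7.38, 7.55 and 7.22 (probe set 10428328), and its 1.58-fold range was 1.44-fold after loess normalization. Slc25a51, the NAD carrier, was measured at 7.22, 7.56, 7.62 and 7.60. As for Slc25a43, mice 2 to 4 lay within 1.04-fold of each other and mouse 1 was lower, here by 0.37 and after loess normalization by 0.24. Among the pyrimidine nucleotide carriers, Slc25a33 was measured at 6.13, 6.37, 6.37 and 6.26 and Slc25a36 at 5.77, 5.58, 5.68 and 5.56. The second probe set of Slc25a36 exceeded the limit on 3 arrays only. The S-adenosylmethionine carrier Slc25a26 was measured at 6.43, 6.49, 6.62 and 6.32.

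Of 4 carriers for iron, glutathione and heme synthesis, 3 were above background and none of them exceeded 1.5-fold. The glutathione carrier Slc25a39 was measured at 10.81, 10.66, 10.73 and 10.83. Its paralog Slc25a40 was measured at 5.75, 5.10, 5.57 and 5.70 and was below the limit in mouse 2, and its other probe set was above the limit on no array. Mitoferrin 2, Slc25a28, was measured at 6.93, 7.00, 6.77 and 6.90, and mitoferrin 1, Slc25a37, at 6.86, 7.13, 7.26 and 7.30. Slc25a37 is known from erythroid cells. Of 6 measured erythroid markers, Alas2 and Slc4a1 were above background, and the summed linear signal of the list was 789, 782, 806 and 832 in mice 1 to 4. The part of such cells in the values of Slc25a37 was not tested.

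Uncoupling proteins let protons or anions pass the inner membrane, and Ucp1 is the heat-producing form of brown adipocytes. Ucp1 was measured at 5.22, 5.08, 4.67 and 4.87 and Ucp3, known from muscle, at 4.71, 5.01, 4.83 and 4.84, and both were above the limit on no array. Of 7 further brown adipocyte markers, Cidea, Elovl3, Ppargc1b and Kcnk3 were above background, and Dio2, Zic1 and Lhx8 were above the limit on no array. Cidea and Elovl3 had means of 9.86 and 12.70, and the part of brown adipocytes in these values was not tested. Slc25a14 was above the limit on no array, and Slc25a27, measured at 5.60, 5.28, 5.66 and 5.76, missed it in mouse 2. Slc25a30, a relative of these proteins known as kidney mitochondrial carrier protein, was the single gene of this group above background. It was measured at 8.34, 7.53, 7.52 and 8.18 (probe set 10421648), with a mean of 7.89 ± 0.43 (SD, n = 4). Mice 1 and 4 lay above mice 2 and 3. The range of 1.76-fold was 2.02-fold after loess normalization, then the widest of the 37 carriers, and 1.58-fold without mouse 1.

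Slc25a25 and Slc25a30 thus had their higher values in the same mice. Pancreatic acinar transcripts, which are not made by hepatocytes, were mostly higher in mice 1 and 4 as well. Of 14 measured acinar markers, 13 were above background, of which 12 were higher in mice 1 and 4 than in mice 2 and 3. The exception was Ctrc, with 6.00, 6.18, 6.03 and 6.14. The summed linear signal of the list was 4027, 1030, 1220 and 3412 in mice 1 to 4. Higher values in mice 1 and 4 than in mice 2 and 3 were also met outside the acinar list. Instances are Asl, Arg1, Got1 and Timm8a1 of the lists described below. The share of all genes with this order was not counted. The part of acinar cells in the values of Slc25a25 and Slc25a30 was not tested. In whole liver, fewer cells of a type and less RNA per cell cannot be told apart. The promoter window of Slc25a30, at chr14:75787038-75787287 on the minus strand of GRCm38.p6, is shown beside that of Slc25a25. Capitals mark a CCAAT box and a GC box, and the window had no cAMP response element.
Slc25a30: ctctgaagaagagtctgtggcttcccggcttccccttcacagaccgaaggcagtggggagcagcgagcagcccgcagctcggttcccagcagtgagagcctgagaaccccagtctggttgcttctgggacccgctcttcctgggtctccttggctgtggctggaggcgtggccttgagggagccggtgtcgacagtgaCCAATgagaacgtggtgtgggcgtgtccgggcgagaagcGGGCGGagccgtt

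**Figure D2:**
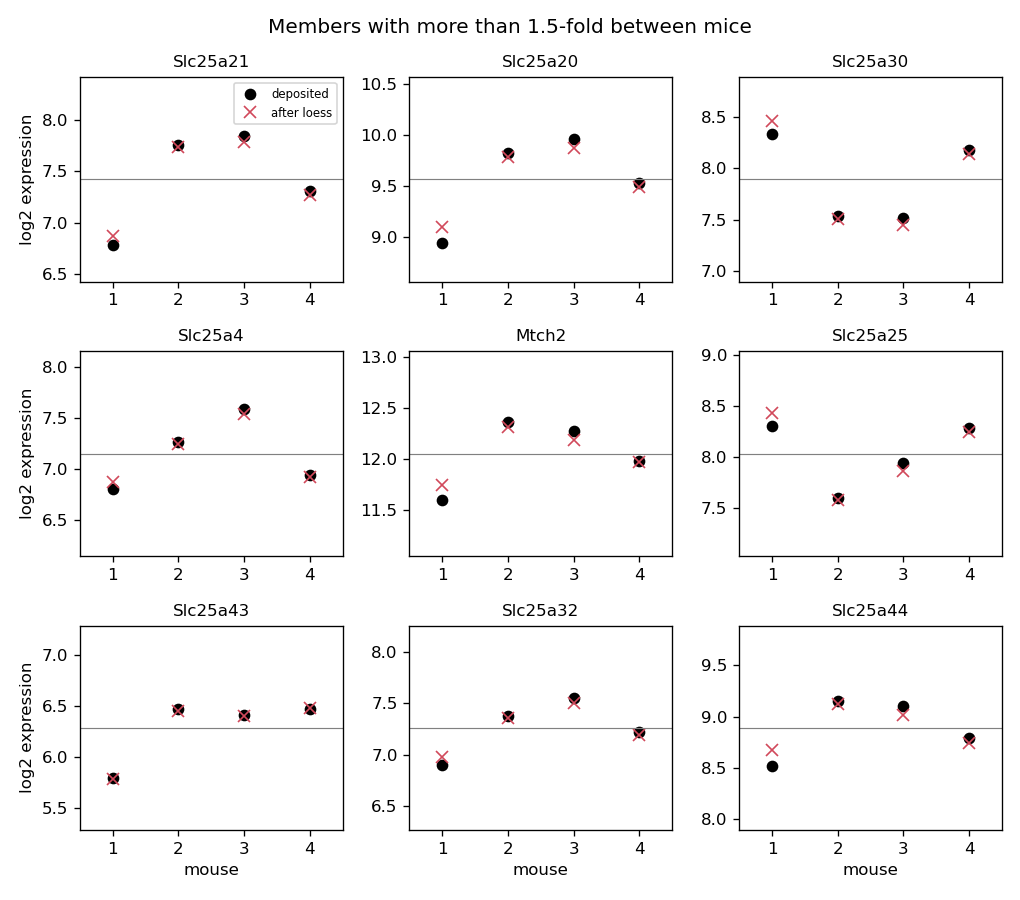
Log2 expression of the 9 members with more than 1.5-fold between mice, with the mouse on the x axis. Black points are the deposited values, red crosses the values after cyclic loess normalization and grey lines the mean of the deposited values, and each panel spans 2 log2 units. Slc25a30 and Slc25a25 were higher in mice 1 and 4, and the other 7 were lowest in mouse 1.

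Mtch2 acts as an insertase for outer membrane proteins and, with Mtch1, is a distant member of the family. Mtch2 was measured at 11.60, 12.36, 12.27 and 11.98 (probe set 10530851), with a mean of 12.05 ± 0.34 (SD, n = 4). Mouse 1 was lowest. The 1.69-fold range was 1.48-fold after loess normalization and 1.30-fold without mouse 1. Its other probe set gave 10.55, 11.14, 11.09 and 10.97, with the same order of the mice. Mtch1 was measured at 8.49, 8.59, 8.83 and 8.73. Slc25a46, which takes part in mitochondrial fission, was measured at 8.83, 8.81, 8.83 and 8.99. Slc25a16, whose substrate is not settled, was measured at 9.21, 9.46, 9.54 and 9.46. Slc25a53 was measured at 5.14, 5.15, 5.17 and 4.91 and was above the limit on no array.

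Over the 37 carriers above background, 24 (64.9%) had their lowest value in mouse 1, against 46.1% of all genes, and 5, 4 and 4 had it in mice 2, 3 and 4, against 18.8%, 16.5% and 18.7% of all genes. The highest value was in mice 1 to 4 for 4, 10, 16 and 7 carriers, against 22.9%, 20.9%, 31.4% and 24.9% of all genes. Set against the mean of mice 2 to 4, mouse 1 had a median of -0.26 over the carriers and -0.08 over all genes. Of the carriers, 13 were in the highest of the 10 expression classes, where the median of all genes was -0.23. After loess normalization, 19 carriers were lowest in mouse 1, against 33.1% of all genes (19 and 36.1% after quantile normalization). The median difference of mouse 1 was then -0.06 for the carriers and -0.01 for all genes. A further 12 carriers were then highest in mouse 1, and the share of all genes highest there was not counted. The difference of mouse 1 changed sign after loess normalization in 6 carriers, of which none was among the 9 with a wide range. Within their own expression class, Slc25a20, Slc25a21, Slc25a29 and Slc25a43 lay below the 5th percentile in mouse 1, and Slc25a25 and Slc25a30 above the 95th. Of these, Slc25a29 and Slc25a43 lay only 0.16 and 0.27 above the background limit in mouse 1. A single mouse apart from the other 3 by Dixon's criterion was seen in 4 of the 50 members (8.00%), against 5.76% of all named genes.

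**Figure D3:**
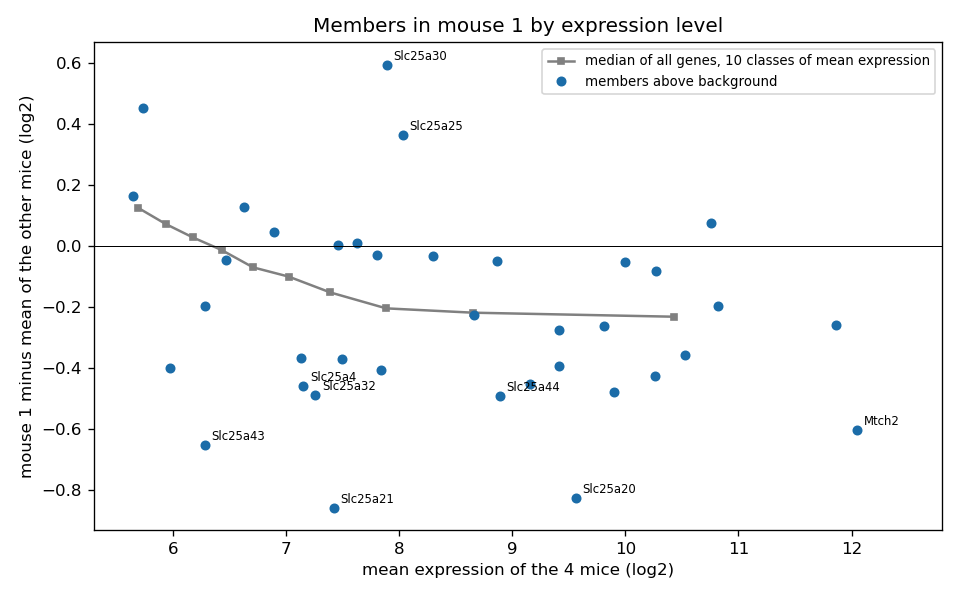
Difference of mouse 1 from the mean of the other 3 mice (log2, y axis) against mean expression (log2, x axis) for the 37 members above background (blue points), with the 9 members of wide range named. The grey line joins the median of all genes in 10 classes of mean expression, which runs from 0.13 in the lowest to -0.23 in the highest class. Slc25a21 (-0.86), Slc25a20 (-0.83) and Slc25a43 (-0.65) lay below the 5th percentile of their class.

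Genes that work with the carriers were listed for comparison, comprising the shuttles, pyruvate entry and citrate export, the carnitine shuttle, the urea cycle and the import machinery. All 39 measured genes of these lists were above background. Of these, 7 (17.9%) differed by more than 1.5-fold, against 12.9% of all genes, and 28 (71.8%) were lowest in mouse 1, against 46.1% of all genes. After loess normalization 17 (43.6%) were lowest in mouse 1, against 33.1% of all genes. Mpc1, a subunit of the mitochondrial pyruvate carrier, was measured at 9.87, 10.79, 10.85 and 10.42 in mice 1 to 4, a 1.97-fold range that was 1.66-fold after loess normalization. Citrate synthase, Cs, was measured at 9.03, 9.73, 9.82 and 9.53, a 1.72-fold range that was 1.45-fold after loess normalization. The others were Gpd2 (1.59-fold), Slc22a5 (1.57-fold), Acadm and Vdac3 (1.51-fold), also lowest in mouse 1, and Timm8a1 (1.64-fold), which was lowest in mouse 2. After loess normalization, 3 of the 7, namely Mpc1, Slc22a5 and Timm8a1, still exceeded 1.5-fold and no other gene of the lists did. This is 7.69% of the 39 genes, against 9.92% of all genes. Without mouse 1, 0 of the 39 exceeded 1.5-fold, against 2.71% of all genes. None of the 6 measured urea cycle genes exceeded it in the deposited values or after loess normalization, against 12.9% and 9.92% of all genes. Cps1 was measured at 12.47, 12.47, 12.51 and 12.59.

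**Figure D4:**
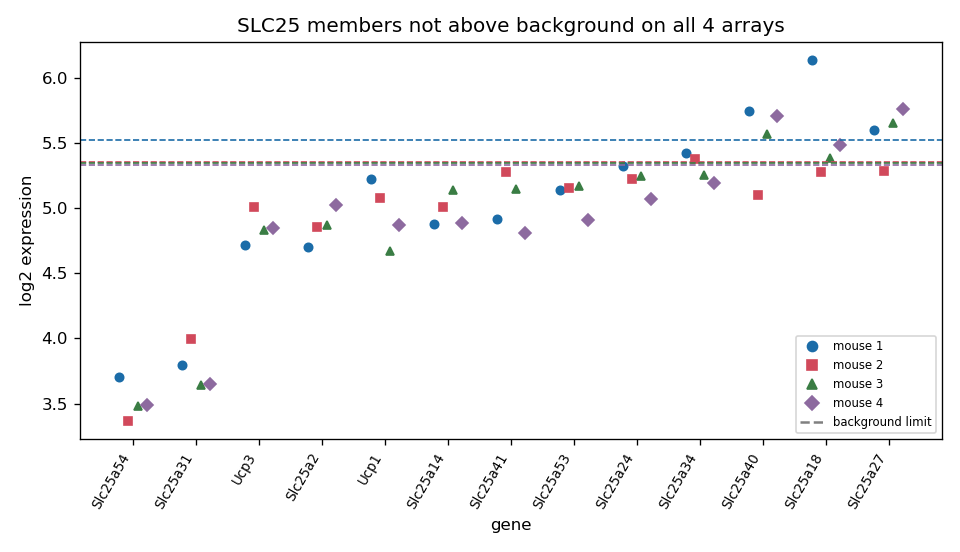
Log2 expression (y axis) of the 13 members not above background on all 4 arrays, ordered by mean, in each mouse (symbols). Dashed lines are the background limits of the 4 arrays, 5.33 to 5.52. Of these, 9 were above the limit on no array, among them Ucp1, Ucp3, Slc25a31 and Slc25a2.

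Promoter sequences of RefSeq (GRCm38.p6) were given for 40 of the 50 members in 51 windows, each read over the 250 bases before the start and on both strands. A gene can have several windows, and those of Slc25a23 overlap, so that windows are not independent. The GC box (GGGCGG) was found in 35 windows (68.6%), against 32.7% of 32851 windows of all genes. The TATA box (TATAAA) was found in 2 windows (3.92%), against 12.4%. The CCAAT box (CCAAT) was found in 21 windows (41.2%), against 33.8%, and the E-box (CACGTG) in 8 (15.7%), against 6.02%. The nuclear receptor half-site (AGGTCA) was found in 7 (13.7%), against 14.0%, and counted by gene in 7 of 40 members, against 15.8% of all genes. Its longer form AAGGTCA, which overlaps it, was found in 2 (3.92%), against 4.08%, and by gene in 2 of 40 members, against 4.70%. The ETS site (CCGGAAGT), found in Slc25a20 and Mtch2, was in 2 windows (3.92%), against 2.88%. The cAMP response element (TGACGTCA), found in Slc25a25 and Slc25a36, was also in 2 windows, against 1.55%. No window of a member held the palindromic NRF1 site, against 0.782% of all windows. The median GC content was 58.0% in member windows and 52.4% in all windows. A match describes these letters in this window and was not examined as a binding site.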

How the data were processed

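Liver RNA of 4 aP2-SREBP-1c mice was measured on 1 array each. The authors deposited log2 expression values, and the submitters' processing notes name RMA and Affymetrix Expression Console. This method corrects background, equalizes the distributions of arrays and combines probes robustly. The set of arrays processed jointly, and the build, are not given in the sources used here. Among 35556 probe sets, 21789 had 1 symbol in the platform annotation, checked through gene identifiers against RefSeq (GRCm38.p6), 1621 had several and 12146 were unnamed here. No value column lacked a sample. Whether the mice shared litters is not stated. With 1 array per mouse, technical and biological spread cannot be told apart. Any 2 arrays shared the exact value of 25 probe sets or fewer.

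Means, SDs and ranges were computed on the log2 scale with Python 3.11.15, numpy 2.4.6 and pandas 2.3.3, and figures with matplotlib 3.10.9. Quantile and cyclic loess normalization used limma 3.58.1 in R 4.3.3, keeping the set of genes above background. Counts and scalings were tested on simulated data. Members, role groups and marker lists were chosen with earlier results of these data known. Values of every mouse are given for members with more than 1.5-fold between mice, paralog pairs, members known for liver or for other tissues, the members of largest and smallest SD in each role group and those with 1 mouse apart. The alternatives comprised other scalings, averaging the probe sets of each gene, background limits at the 90th and 99th percentile, no such limit, a 2-fold range and leaving out each mouse. Arrays of other phenotypes were not analysed here.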

Additional observations from a re-analysis of the deposited data

Results flagged for a closer look

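In 4 of the 50 members (8.00%) 1 mouse stood apart from the other 3 by Dixon's criterion, whereas 5.76% of all named genes met it, and chance flags about 1 in 20. Relative to its 3 companions, that mouse was at -0.65 for Slc25a43 and -0.37 for Slc25a51 in mouse 1, and 0.17 for Slc25a46 and -0.24 for Slc25a53 in mouse 4. Slc25a53 was above the limit on no array. By the same criterion, 5.52, the limit of background in mouse 1, was apart from 5.33 to 5.35 in mice 2 to 4.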

How the results depend on the processing

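The number of members above background was 37 to 40 with 1 mouse left out. The number differing by more than 1.5-fold was 2 with a 2-fold range and 3 to 9 with 1 mouse left out, the lowest without mouse 1. For all genes above background the percentage was 1.13 with a 2-fold range and 2.71 to 10.5 with 1 mouse left out. The median SD of the members was 0.095 to 0.20 with 1 mouse left out, the lowest again without mouse 1. After quantile and after cyclic loess normalization alike, 12 members were highest in mouse 1, 8 were lowest and 10 highest in mouse 3, and 4 were highest in mouse 4. The median difference of the members in mouse 1 was then -0.050 and -0.065. With median-centred arrays, 2 members were lowest in mouse 4. With the background limit at the 90th percentile, 8 members were highest in mouse 1 and 8 lowest in mouse 2, and at the 99th percentile 2 were highest in mouse 1. Without a filter on low values, 10 members were highest in mouse 1, 9 lowest in mouse 2 and 8 lowest in mouse 4, and the median difference of uncoupling proteins and relatives in mouse 2 became 0.043, with 5 genes in place of Slc25a30 alone. For these counts of lowest and highest members under other settings, the share of all genes was not counted. Levels of members were recomputed 400 times, of which 397 stayed within the SD between mice. This outcome was largely fixed in advance and does not show that the levels are robust. Leaving out 1 mouse moves a mean of 4 by less than their SD, and centring on array medians leaves it unchanged. Most members also have a single probe set, so that averaging probe sets changes nothing for them. Averaging the probe sets of each gene moved Mtch2 to 11.49, Slc25a36 to 5.54 and Slc25a5 to 11.50. Members near background, such as Slc25a29, Slc25a35, Slc25a36 and Slc25a43, are measured least surely. Where neither fewer mice nor more genes account for a change, the cause was not tested. No paired analysis was possible because all animals belong to a single group.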
